A study of Mus musculus with 12 samples.

Results

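Cytochrome P450 genes of mouse liver were followed through the H3K27ac regions that carry their names. Members were all regions whose gene name began with Cyp and a digit. Cyp7a1, Cyp8b1, Cyp27a1 and Cyp51, the genes of bile acid and sterol synthesis with 16 regions between them, were left out. This gave 199 of the 36387 regions measured, with 55 of 11240 gene names in 22 subfamilies. The choice used no measured value. Of the member regions, 76 lay within 1 kb of a start site, 27 at 1 to 3 kb, 24 elsewhere inside a gene and 72 between genes. A region away from a start site carries the name of the nearest gene: 87 overlapped the body of the gene they were named for and 178 lay within 20 kb of it, with the farthest at 52.7 kb.

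H3K27ac, acetylation of histone H3 at lysine 27, marks active promoters and enhancers, and here it was measured by chromatin immunoprecipitation and sequencing in whole mouse liver. All mice carried a floxed Cox10 allele. The wild-type group received AAV8-GFP and the Cox10-/- group AAV8-Cre, by injection into the blood, so recombination needed the adeno-associated virus to reach a cell. The sources used here do not name the promoter that drove Cre. A 70% partial hepatectomy followed after 4 weeks, and regenerating liver was taken on day 2. Each genotype had 3 H3K27ac libraries and 3 input libraries, and the inputs were not used. The labels number the replicates without saying that each was a separate animal, so the p-values measure the spread between these libraries, which may be technical. Sex and age are not given in the sources used here.

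Cytochrome P450 enzymes are heme proteins, most of them anchored in the endoplasmic reticulum, that oxidise drugs, fatty acids, steroids and vitamins with electrons passed on by P450 oxidoreductase. The hepatocyte is their main site, and several are used as markers of position in the liver lobule or of receptor activation by foreign compounds. Cox10 makes an intermediate of heme A for cytochrome c oxidase of the mitochondria, whereas P450 enzymes carry heme b.

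RefSeq start sites on GRCm38.p6, the assembly also called mm10, were given for 41 of the 55 names, with 46 starts. The 10 sequences that follow are the 150 bases before a start, written 5′ to 3′. They were chosen to show the Cyp3a genes that held the deepest falls (Cyp3a41b, Cyp3a41a, Cyp3a16 and their close relative Cyp3a44) beside 2 other Cyp3a genes, 2 more genes of drug and bile acid metabolism, and 2 genes with a start-site region that was not called. Capitals mark a match, on either strand, to TATAAA (the TATA box), TGTTTAC (FOXA), CAAAGTCCA (HNF4A), AGGTCA (a nuclear receptor half-site), GCGTG (the AHR-ARNT core) or TTCNNNGAA (STAT5).
Cyp3a41b, chr5:145584731-145584880, minus strand: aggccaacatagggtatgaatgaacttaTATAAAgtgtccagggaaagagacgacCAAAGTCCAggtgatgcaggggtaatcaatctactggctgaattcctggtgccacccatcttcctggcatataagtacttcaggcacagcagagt
Cyp3a41a, chr5:145720137-145720286, minus strand: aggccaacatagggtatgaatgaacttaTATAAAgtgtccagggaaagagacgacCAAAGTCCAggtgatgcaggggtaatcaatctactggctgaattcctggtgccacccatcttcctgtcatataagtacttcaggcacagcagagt
Cyp3a16, chr5:145469724-145469873, minus strand: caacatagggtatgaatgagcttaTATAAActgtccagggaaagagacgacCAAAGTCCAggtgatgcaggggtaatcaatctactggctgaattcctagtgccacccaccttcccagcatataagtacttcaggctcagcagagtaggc
Cyp3a44, chr5:145805875-145806024, minus strand: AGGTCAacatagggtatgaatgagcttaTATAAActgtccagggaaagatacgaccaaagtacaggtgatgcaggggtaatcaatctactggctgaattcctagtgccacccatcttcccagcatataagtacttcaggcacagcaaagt
Cyp3a11, chr5:145879855-145880004, minus strand: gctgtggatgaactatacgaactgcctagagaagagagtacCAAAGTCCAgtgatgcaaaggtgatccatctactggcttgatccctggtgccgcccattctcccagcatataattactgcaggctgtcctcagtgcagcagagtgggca
Cyp3a13, chr5:137921620-137921769, minus strand: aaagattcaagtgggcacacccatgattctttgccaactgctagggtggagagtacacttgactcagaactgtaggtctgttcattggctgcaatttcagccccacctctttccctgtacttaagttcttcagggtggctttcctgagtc
Cyp2e1, chr7:140763669-140763818, plus strand: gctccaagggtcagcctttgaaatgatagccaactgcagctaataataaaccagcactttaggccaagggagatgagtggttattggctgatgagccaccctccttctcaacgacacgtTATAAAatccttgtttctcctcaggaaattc
Cyp2c70, chr19:40187287-40187436, minus strand: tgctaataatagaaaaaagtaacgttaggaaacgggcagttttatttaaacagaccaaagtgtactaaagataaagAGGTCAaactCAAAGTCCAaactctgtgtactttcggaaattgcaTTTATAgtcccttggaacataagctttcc
Cyp4a32, chr4:115600788-115600937, plus strand: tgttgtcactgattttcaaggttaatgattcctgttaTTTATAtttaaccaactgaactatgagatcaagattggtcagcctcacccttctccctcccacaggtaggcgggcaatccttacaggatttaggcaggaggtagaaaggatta
Cyp20a1, chr1:60343150-60343299, plus strand: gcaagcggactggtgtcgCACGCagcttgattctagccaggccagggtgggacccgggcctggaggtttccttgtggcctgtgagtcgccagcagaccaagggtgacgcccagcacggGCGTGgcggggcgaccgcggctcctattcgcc

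The Cyp3a copies were near-identical before their starts. Cyp3a41a and Cyp3a41b shared 99.3% of the 150 bases, with 1 edit between them. Cyp3a44 shared 94.0% with Cyp3a41b, and Cyp3a16 shared 90.0%. Cyp3a11 was further away, at 64.7% identity to Cyp3a41b, and Cyp3a13 at 52.0%. Reads from such copies can be assigned to either, so the values of Cyp3a41a and Cyp3a41b, and of other close neighbours in the Cyp2a, Cyp2b, Cyp2c, Cyp2d and Cyp4a clusters, are uncertain as values of single genes.

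Motifs were counted in windows from 250 bases before to 50 after each start. TATAAA was present in 24 of the 46 P450 starts (52.2%), against 13.6% of 32851 RefSeq starts in all, taken without chromosome 18. CAAAGTCCA was present in 7 (15.2%), against 0.475%. Those starts were Cyp3a11, Cyp3a16, Cyp3a41a, Cyp3a41b, Cyp2c67, Cyp2c68 and Cyp2c70, several of which are copies of one another and are not independent. TGTTTAC was found in 9 starts (19.6%) against 3.65%, and AGGTCA in 13 (28.3%) against 16.3%. GCGTG went the other way, with 8 starts (17.4%) against 32.4%, as did TTCNNNGAA with 2 (4.35%) against 8.30%. A match of letters is a description and does not show that the factor binds.

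Acetylation at P450 regions was lower without Cox10 almost throughout. On the scale the authors deposited, 193 of the 199 regions were lower in the knockout and 2 were higher at a limma adjusted p under 0.05, here called the threshold. Of all 36387 regions, 87.2% were lower and 4.46% were higher by the same test, so a lower region was the usual state of the table. The median log2 change of the P450 regions was -1.74, or 3.34-fold lower, against -1.04, or 2.06-fold, over all regions. The 4 regions that were not called lay at Cyp1a2, Cyp2a5, Cyp4a32 and Cyp20a1, and the 2 higher ones at Cyp4b1 and Cyp2g1. In 193 P450 regions every knockout library was below every wild-type library, which also held for 86.4% of all regions. In the authors' deposited table, 190 of the P450 regions were lower and 1 was higher at their adjusted p under 0.05, and all of these had the same call here.

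Because most regions fell, each library was also centred on its median region, and changes on this centred scale are relative to that median. The P450 regions then had 134 lower (67.3%), 17 higher (8.54%) and 48 not called. Over all regions 32.4% were lower and 33.6% higher. The median change of the P450 regions on the centred scale was -0.69, and of all regions 0.01. On this scale 22 of the 55 genes had only lower regions, 13 had at least 1 higher region, and 5 (Cyp1a2, Cyp2b9, Cyp2d22, Cyp4f13 and Cyp4v3) had both.

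**Figure D1:**
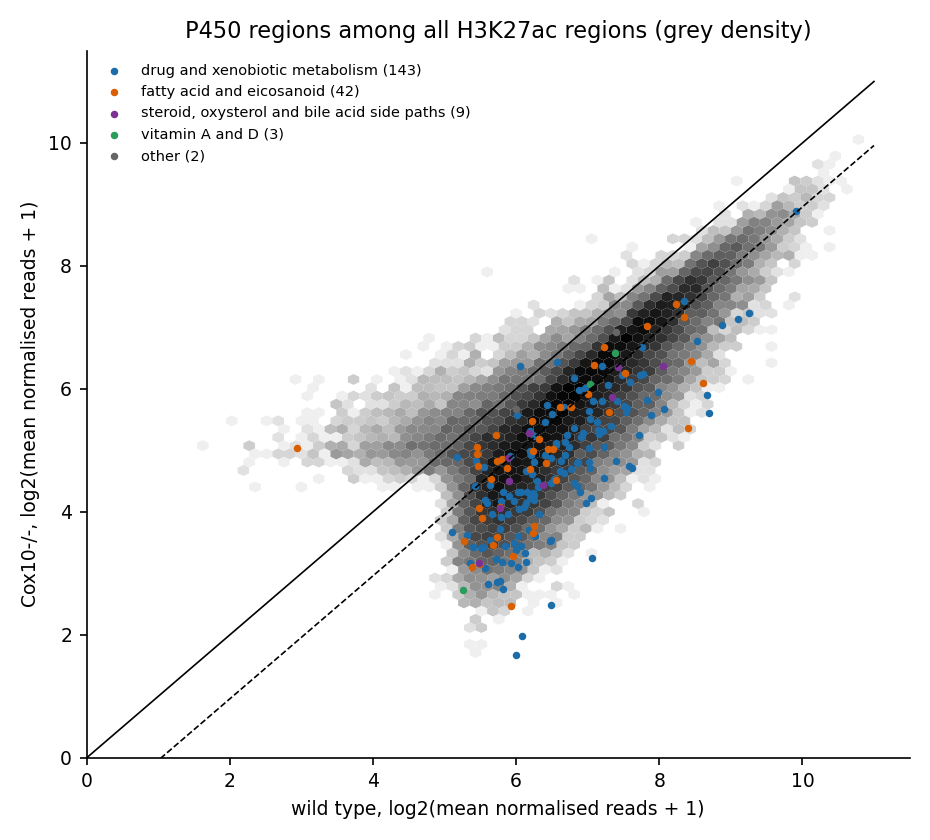
Log2 of the mean normalised reads + 1 in wild type (x axis) and in the knockout (y axis), with the density of all regions in grey and the 199 P450 regions as points coloured by role. The solid line is equality and the dashed line the median change of all regions (-1.04), and most P450 points lie below both, with a median log2 change of -1.74.

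P450 regions were narrower and weaker than the usual region of the table. Their median width was 348 bp against 440 bp, and their median signal 55.8 normalised reads against 74.8. The 67 P450 regions at or above the median signal of all regions had a median log2 change of -1.66. Of these, 66 (98.5%) were lower on the deposited scale, against 94.1% of all regions of that strength, whose median was -0.96. The 132 weaker P450 regions had a median of -1.83. P450 regions within 1 kb of a start had a median log2 change of -1.69, against -0.87 for all regions of that class. Of the 76, 74 were lower on the deposited scale (97.4%), against 92.3% of that class. The medians were -1.92 against -1.34 at 1 to 3 kb, -1.97 against -1.29 elsewhere inside genes, and -1.62 against -1.23 between genes. Outside the Cyp3a subfamily the median was -1.66, with 158 of 164 regions lower.

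Summed signal was compared on the deposited scale and as a share. The P450 regions held 23718, 23476 and 23663 normalised reads in the libraries of wild type, against 7991, 7699 and 7255 in those of the knockout. Their share of the signal over all regions was 0.431%, 0.440% and 0.442% in wild type, against 0.285%, 0.282% and 0.292% in the knockout. The groups did not overlap on either measure. The sum fell 3.09-fold, and the share, which a common scale does not touch, fell 1.53-fold. By subfamily, the share of Cyp3a went from 0.0727% ± 0.0017 to 0.0322% ± 0.0015, and that of Cyp2e from 0.0157% ± 0.00075 to 0.0053% ± 0.00016 (SD, n = 3). Cyp4a went from 0.0125% ± 0.00045 to 0.0146% ± 0.00052.

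The median change ranged widely over subfamilies. Of those with 5 or more regions, the lowest medians on the log2 scale were in Cyp2e (-2.62, 7 regions), Cyp3a (-2.48, 35 regions), Cyp2c (-1.97, 25 regions) and Cyp2d (-1.90, 37 regions). Cyp2j (-1.69, 5 regions), Cyp4f (-1.63, 16 regions), Cyp4v (-1.62, 7 regions), Cyp2a (-1.59, 16 regions) and Cyp2b (-1.57, 12 regions) followed. The smallest falls were in Cyp1a (-1.19, 9 regions) and Cyp4a (-0.91, 10 regions). By role, the 143 regions of drug and xenobiotic enzymes had a median of -1.92, with 140 lower on the deposited scale, and 110 lower and 6 higher on the centred scale. The 42 regions of fatty acid and eicosanoid enzymes had a median of -1.31, with 40 lower on the deposited scale, and 18 lower and 8 higher on the centred scale.

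**Figure D2:**
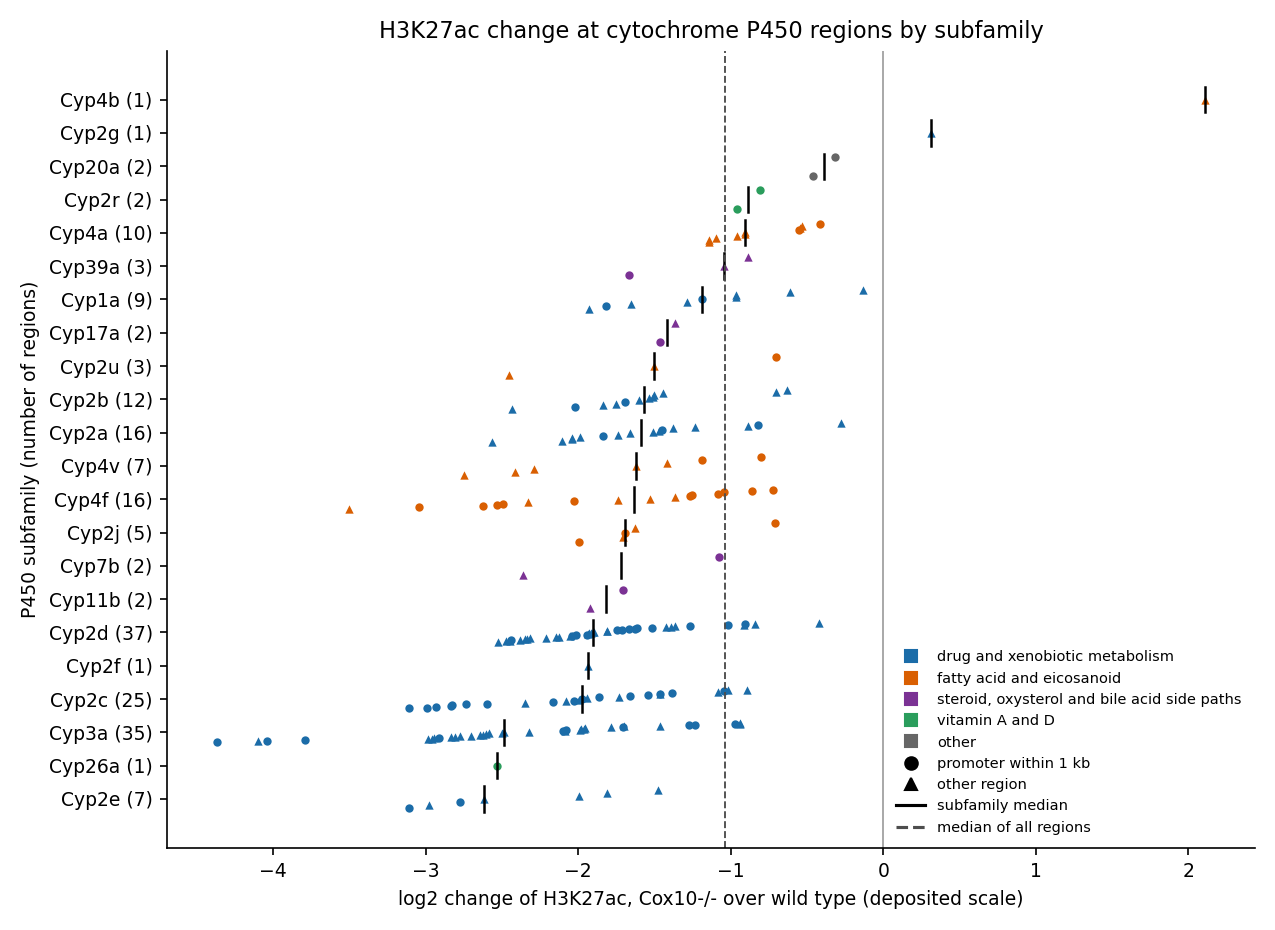
Log2 change (knockout over wild type, deposited scale, x axis) of each P450 region by subfamily, coloured by role, with circles within 1 kb of a start, triangles elsewhere, a bar at the subfamily median and a dashed line at the median of all regions (-1.04). Cyp2e and Cyp3a sit low, and the medians of Cyp4a, Cyp2r and Cyp20a lie above the dashed line. The single regions of Cyp2g1 and Cyp4b1 also lie above it, at 0.31 and 2.11.

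The Cyp3a subfamily, whose enzymes oxidise a large share of drugs and steroids, lay on chromosome 5 with 35 regions of 7 genes, all lower on the deposited scale and 30 lower on the centred scale. At the Cyp3a11 promoter (chr5:145879137-145879841), the main adult Cyp3a gene and a target of the receptor PXR, the wild-type libraries held 196, 190 and 201 normalised reads, the knockout libraries 20.4, 27.4 and 28.03. The groups were far apart, with a log2 change of -2.92 (SE 0.16, limma adjusted p = 1.1e-45). The strongest Cyp3a region (chr5:145636003-145637177) was named for Cyp3a41b, but it lay between genes, 51.3 kb from that gene body, and overlapped the pseudogene Cyp3a63-ps. It held 418, 394 and 405 normalised reads in wild type, against 70.5, 52.5 and 53.8 in the knockout, a log2 change of -2.78 (SE 0.12, limma adjusted p = 2.4e-61). Its neighbour at 145635554 changed by -2.70 and a Cyp3a41b region in intron 3 by -2.59 on the log2 scale.

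Promoter regions of the copies Cyp3a41a, Cyp3a41b and Cyp3a16, shown above, were weaker and nearly lost. They fell below the median signal that the naming rule asked for and were picked after their values were seen. At Cyp3a16 (chr5:145468826-145469168) the wild-type libraries held 82.5, 94.5 and 89.5 normalised reads, the knockout libraries 5.95, 3.23 and 4.55, which came from 7, 4 and 6 reads. The log2 change was -4.04 (SE 0.30, limma adjusted p = 6.4e-30). At Cyp3a41a (chr5:145719533-145720061) wild type held 158, 108 and 132 and the knockout 8.498, 8.07 and 9.09 normalised reads, a log2 change of -3.79 (SE 0.22). The Cyp3a41b promoter region (chr5:145583917-145584164) had the deepest fall of all 199, from 63.1 ± 10.9 to 2.18 ± 1.06 normalised reads (SD, n = 3), with a log2 change of -4.37 (SE 0.40) that rested on 4, 2 and 2 reads in the knockout. Cyp3a44, whose start sequence is closely alike, had no region within 1 kb of its start, and its 2 intron regions changed by -2.48 and -1.96.

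The other 2 Cyp3a genes changed less. The 5 regions of Cyp3a25 ranged from -1.71 to -0.94 on the log2 scale. At the stronger of its start-site regions (chr5:146009964-146010725), chosen after its values were seen, wild type held 153, 156 and 157 and the knockout 61.2, 56.5 and 81.1 normalised reads, 2.35-fold lower. Cyp3a13 lies apart from the cluster on the same chromosome, and its start-site regions changed by -1.27 and -0.97. All 7 regions of these genes were called lower on the deposited scale, but 5 of them were not called on the centred scale. Those 5 were the only Cyp3a regions without a centred call.

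**Figure D3:**
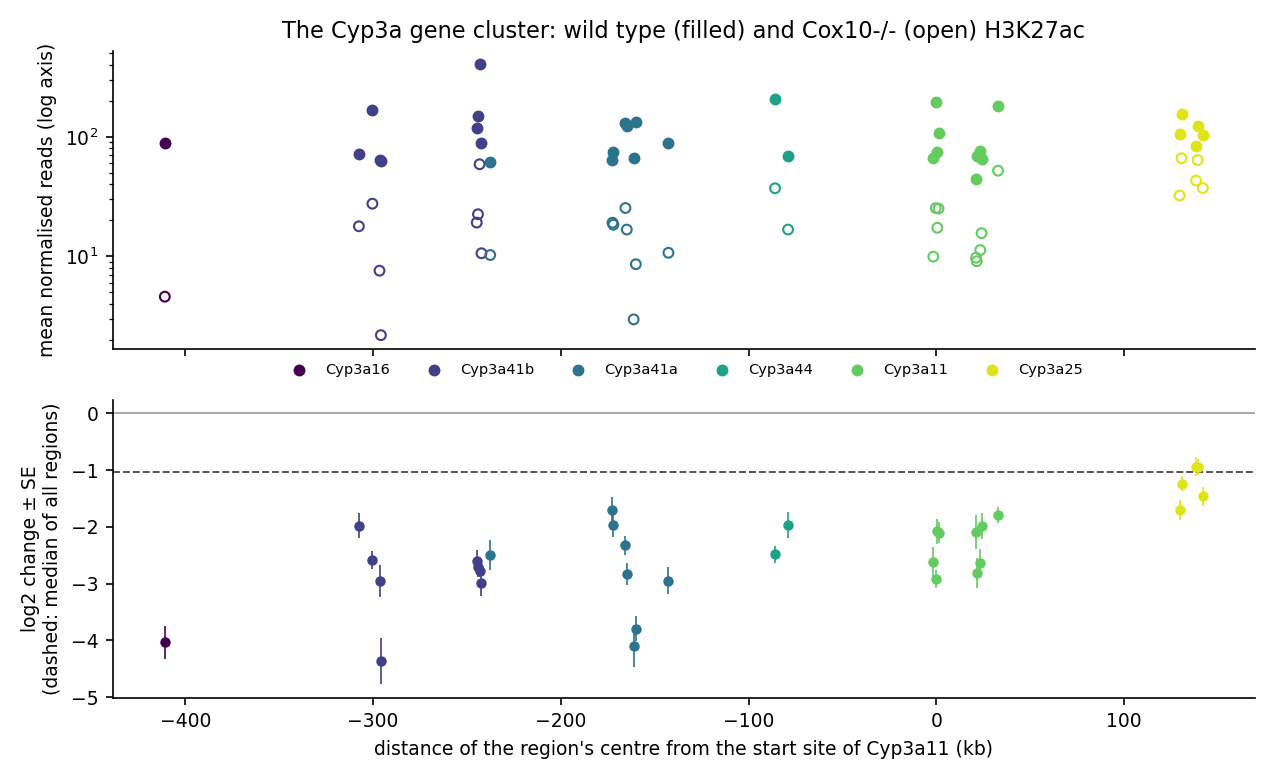
Upper panel, mean normalised reads (log axis) of each region in wild type (filled) and in the knockout (open); lower panel, its log2 change on the deposited scale with a bar of 1 SE; both by distance in kb from the Cyp3a11 start and coloured by gene name, without Cyp3a13. Every change is below 0, the lowest is Cyp3a41b at -4.37, and the Cyp3a25 regions range from -1.71 to -0.94, around and below the dashed median of all regions (-1.04).

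Cyp2e1, the ethanol-oxidising enzyme of hepatocytes near the central vein, had 7 regions, and its promoter was the most changed of the strong P450 regions. The promoter (chr7:140763912-140765305) held 407, 425 and 412 normalised reads in wild type, against 51.8, 53.3 and 37.9 in the knockout, a log2 change of -3.11 (SE 0.12, limma adjusted p = 1.5e-66). The flanking start-site regions changed by -2.78 and -2.62. Of the 4 regions upstream, between genes, the one 14.9 kb away changed by -2.98, and those 6.3 to 8.1 kb away by -1.99, -1.81 and -1.48. The change was therefore uneven along one gene, and the weakest of the 7 was the only one not called on the centred scale.

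The Cyp2c subfamily, enzymes of drugs and arachidonic acid on chromosome 19, had 25 regions of 7 genes, all lower on the deposited scale and 20 on the centred scale, with none higher. Its strongest region was the Cyp2c39 promoter (chr19:39510894-39512763), with 519, 574 and 555 normalised reads in wild type, against 152, 150.1 and 117 in the knockout, a log2 change of -1.97 (SE 0.096, limma adjusted p = 2.1e-51). The Cyp2c23 promoter (chr19:44028096-44028952), of an epoxygenase, held 188, 189 and 192 against 28.04, 20.98 and 28.8, a log2 change of -2.83 (SE 0.16). The groups were well apart at both. Cyp2c38 had 3 start-site regions at -3.11, -2.83 and -2.99 and Cyp2c50 had 2 at -2.73 and -2.93, all weak in the knockout and chosen after their values were seen. Cyp2c67, one of the genes with the HNF4A letters at its start, had a median of -1.47.

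Cyp2d was the largest subfamily by regions and by signal, on chromosome 15. All 37 regions were lower on the deposited scale, and on the centred scale 28 were lower and 1 was higher. The strongest P450 region of all was the promoter of Cyp2d22 (chr15:82377515-82380222), with 949.8, 994 and 941 normalised reads in wild type, against 477, 473 and 475 in the knockout. Its log2 change of -1.02 (SE 0.074, limma adjusted p = 2.8e-30) was close to that of the median region, and it was 0.04 on the centred scale with no call. Cyp2d9, a gene biased to males in mouse liver, held 172, 192 and 170.0 normalised reads at its promoter (chr15:82452422-82453288) in wild type, against 85.8, 67.0 and 68.2 in the knockout, a log2 change of -1.27 (SE 0.13) that was -0.21 and not called on the centred scale. By contrast, the 7 regions of Cyp2d40 had a median of -2.14, and the 5 of Cyp2d26 one of -2.04. A region between genes named for the pseudogene Cyp2d37-ps (chr15:82693868-82694597) went from 147 ± 2.3 to 81.5 ± 6.9 normalised reads (SD, n = 3), a log2 change of -0.84.

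On chromosome 7, the Cyp2a and Cyp2b genes lie near Cyp2f2 and Cyp2g1. The Cyp2a12 promoter (chr7:27029112-27030676), of a steroid hydroxylase, held 463, 455 and 484 normalised reads in wild type, against 138, 125 and 128 in the knockout, a log2 change of -1.84 (SE 0.098, limma adjusted p = 6.4e-46). Cyp2a4 had 3 regions, in its 3' UTR and just beyond, of -2.56 to -1.99. Of the 2 Cyp2a5 regions, the one 2 to 3 kb from its start was not called, with 35.9, 27.4 and 42.2 normalised reads in wild type, against 34.8, 23.4 and 28.03 in the knockout, values that overlap (limma adjusted p = 0.253). At Cyp2f2, an enzyme used as a marker of hepatocytes near the portal vein, the only region lay in intron 3 of 9 (chr7:27123870-27124244). It held 73.2, 80.8 and 69.0 normalised reads against 20.4, 20.98 and 15.2, a log2 change of -1.94 (SE 0.21).

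Cyp2b enzymes are the classic targets of the receptor CAR. All 12 regions were lower on the deposited scale, and on the centred scale 10 were lower and 2 higher. The Cyp2b9 promoter (chr7:26173415-26175976) held 651, 538 and 639 normalised reads in wild type, against 161, 144 and 142 in the knockout, a log2 change of -2.02 (SE 0.093). A region between genes near Cyp2b9 (chr7:26169402-26169909) held 116, 125 and 93.3 against 73.1, 65.4 and 75.0, a log2 change of only -0.63 (SE 0.14, limma adjusted p = 1.9e-05), and it was higher on the centred scale, at 0.42. These 2 regions of one gene thus lay on opposite sides of the median region. Cyp2b10 had no region within 1 kb of its start. Its single region, 4.46 kb from the gene, changed by -2.43, from 56.3 ± 8.9 to 9.84 ± 3.2 normalised reads (SD, n = 3).

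Cyp2g1, an olfactory P450 gene, had 1 region (chr7:26800407-26800898), 8.03 kb from the gene body. It held 65.2, 60.3 and 71.6 normalised reads in wild type, against 94.3, 75.9 and 75.8 in the knockout. The groups did not overlap, but the log2 change of 0.31 (SE 0.15) only just passed the threshold (limma adjusted p = 0.0477). It missed the threshold with DESeq2 and without wild-type replicate 1, wild-type replicate 2 or knockout replicate 1, at log2 changes of 0.32, 0.31, 0.25 and 0.21.

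Cyp1a1 and Cyp1a2, targets of the aryl hydrocarbon receptor AHR, lie head to head on chromosome 9 and had 9 regions, of which 8 were lower. The stronger start-site region of Cyp1a2 (chr9:57683314-57683607) held 59.9, 68.5 and 56.2 normalised reads in wild type, against 12.7, 15.3 and 23.5 in the knockout, a log2 change of -1.82 (SE 0.23, limma adjusted p = 5.9e-13). Between the 2 genes, 3.57 kb from Cyp1a2, a region (chr9:57687228-57687750) held 95.8, 94.5 and 93.3 against 89.2, 88.8 and 80.3. All knockout values there were below the wild-type values, but the log2 change of -0.13 (SE 0.14) was not called (limma adjusted p = 0.35), and on the centred scale it was higher, at 0.92. The single Cyp1a1 region, 1 to 2 kb from its start, changed by -0.97.

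Cyp4a enzymes hydroxylate fatty acids at their end and are textbook targets of the receptor PPARalpha. Their 10 regions fell least among the larger subfamilies, with a median of -0.91 that was near the -1.04 of all regions. On the deposited scale 9 were lower (90.0%), against 87.2% of all regions. On the centred scale none was lower and 4 were higher (40.0%), against 32.4% and 33.6% of all regions. The Cyp4a10 promoter (chr4:115518350-115519115) held 158, 158 and 132 normalised reads in wild type, against 109, 92.0 and 103 in the knockout, a log2 change of -0.55 (SE 0.12, limma adjusted p = 2.0e-05), and 0.50 on the centred scale. The groups did not overlap. At Cyp4a32 the start-site region (chr4:115601076-115601382) held 35.9, 36.98 and 54.96 against 45.0, 25.8 and 25.8, which overlap, and was not called (limma adjusted p = 0.066). Cyp4a14 had no region within 1 kb of its start, and its 2 regions at 1 to 2 kb changed by -1.10 and -1.14.

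Cyp4f enzymes, which inactivate leukotrienes and shorten vitamin side chains, had 16 regions on chromosome 17, all lower, and among them the widest range within 1 gene. The Cyp4f14 promoter (chr17:32915732-32917031) held 339, 322 and 351 normalised reads in wild type, against 37.4, 41.2 and 41.7 in the knockout, a log2 change of -3.04 (SE 0.13, limma adjusted p = 2.0e-61). The Cyp4f15 promoter (chr17:32685650-32686988) held 382, 405 and 382 against 79.0, 72.6 and 51.5, a log2 change of -2.53 (SE 0.12). The Cyp4f13 promoter (chr17:32946559-32947380) held 302, 285 and 313 against 180.2, 157 and 159, a log2 change of only -0.86 (SE 0.10). A weaker Cyp4f13 region in intron 3, chosen after its values were seen, went from 60.1 ± 1.4 to 4.51 ± 1.4 normalised reads (SD, n = 3), a log2 change of -3.50. The range of 2.78 between the highest and lowest Cyp4f13 region compares with a median range of 0.62 over the 45 P450 genes with 2 or more regions.

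The remaining genes of fatty acid metabolism had few regions. Cyp4v3 had 7, all lower. The stronger of its named promoter regions (chr8:45332200-45333180) held 331, 299 and 346 normalised reads in wild type, against 150.4, 148 and 129 in the knockout, a log2 change of -1.19 (SE 0.10) that was -0.14 and not called on the centred scale. The other, at 45333321, changed by -0.80 and was 0.25 on the centred scale. Cyp2j5 and Cyp2j6, epoxygenases of arachidonic acid, differed: the Cyp2j5 promoter (chr4:96662893-96664102) went from 346 ± 13.3 to 86.6 ± 8.5 normalised reads and the Cyp2j6 promoter (chr4:96552979-96553534) from 135 ± 8.0 to 82.4 ± 3.7 (SD, n = 3). Their log2 changes were -1.99 (SE 0.11) and -0.71 (SE 0.13), and on the centred scale the first was lower and the second higher. Cyp2u1, a fatty acid hydroxylase, changed by -1.50 at its strongest region, on chromosome 3. That region was annotated as between genes but overlapped Gm18492.

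The clearest rise was at Cyp4b1, an enzyme best known from lung, on chromosome 4. Its region 2 to 3 kb from the start (chr4:115649771-115649996) held 3.99, 9.59 and 6.39 normalised reads in wild type, against 41.6, 32.3 and 21.2 in the knockout, from 3, 7 and 5 against 49, 40 and 28 reads. The groups did not overlap, and the region was 4.32-fold higher, a log2 change of 2.11 (SE 0.38, limma adjusted p = 1.6e-07). With a mean of 19.2 it was the weakest of the 199 regions.

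Of the genes of steroid metabolism, all 9 regions were lower on the deposited scale. Cyp7b1, the oxysterol hydroxylase of the alternative bile acid path, held 158, 167 and 187 normalised reads at its promoter (chr3:18243010-18243842) in wild type, against 71.4, 78.3 and 92.4 in the knockout, a log2 change of -1.08 (SE 0.13) that was -0.02 and not called on the centred scale. A weak region in its intron 1, chosen after its values were seen, changed by -2.36. Cyp39a1, a 24-hydroxycholesterol hydroxylase, held 306, 248 and 239 at its promoter (chr17:43667533-43668719) against 81.6, 77.5 and 87.1, a log2 change of -1.67 (SE 0.12). Cyp17a1, best known from adrenal and gonad, held 164, 164 and 155 at its promoter (chr19:46668636-46669253) against 56.9, 61.3 and 54.5, a log2 change of -1.47 (SE 0.14). Cyp11b2, the aldosterone synthase of the adrenal, went from 81.7 ± 18.2 to 20.8 ± 4.2 (SD, n = 3) at a region 1 to 2 kb from its start. The log2 change was -1.92 (SE 0.21), and the region overlapped another gene, Gm41347.

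Both genes of vitamin metabolism had lower regions. Cyp26a1, which breaks down retinoic acid, held 51.9, 31.5 and 28.1 normalised reads at its only region (chr19:37697139-37697353) in wild type, against 7.65, 3.23 and 6.06 in the knockout, a log2 change of -2.53 (SE 0.38, limma adjusted p = 4.5e-10). That region lay just outside the Cyp26a1 gene body and overlapped another gene, Gm32342. Cyp2r1, the vitamin D 25-hydroxylase, held 180, 163 and 156 at its promoter (chr7:114562639-114563002) against 97.7, 103 and 82.6, a log2 change of -0.81 (SE 0.12), and 0.24 on the centred scale. Cyp20a1, an orphan P450 whose substrate is not known, was among the least changed. Its promoter (chr1:60342778-60343572) held 206, 140 and 158 in wild type, against 118, 118 and 126 in the knockout, a log2 change of -0.46 (SE 0.12, limma adjusted p = 0.00021). Its second start-site region was not called (limma adjusted p = 0.0769).

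**Figure D4:**
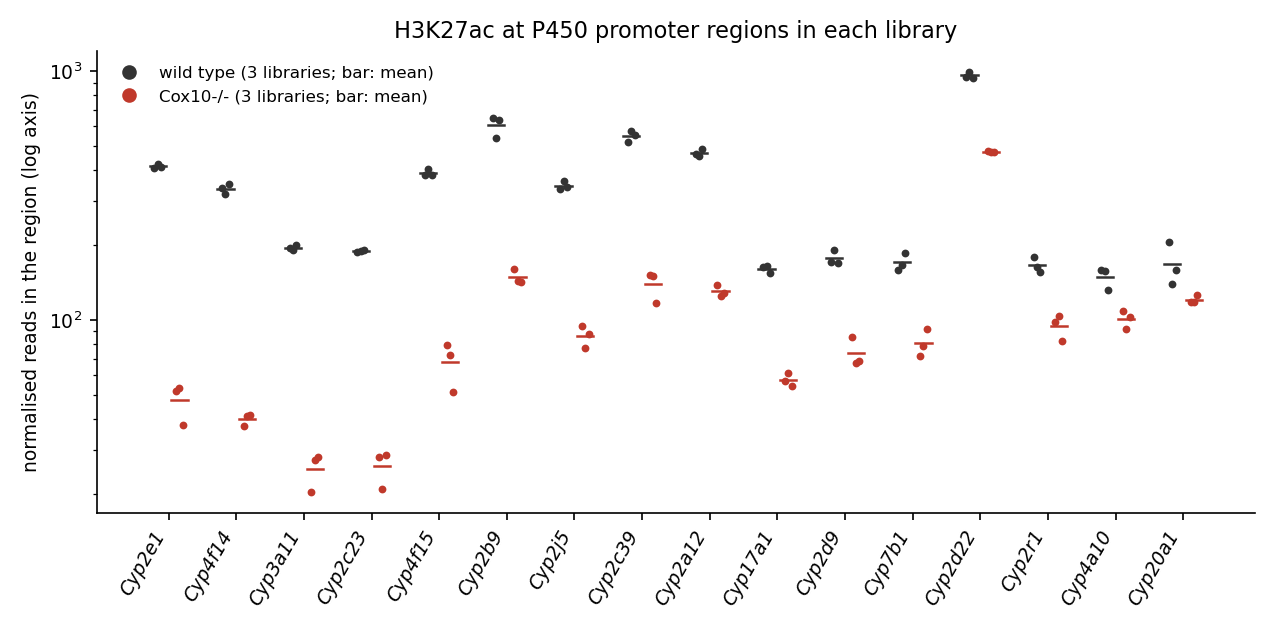
Normalised reads in each of the 3 wild-type and 3 knockout libraries (points, log axis) at named P450 promoter regions, with a bar at each group mean. The points of the 2 genotypes are widest apart at Cyp2e1, Cyp4f14 and Cyp3a11 and closest at Cyp4a10 and Cyp20a1.

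Grouped by the receptor that is known to induce them, the 28 regions of 6 measured CAR and PXR targets had a median log2 change of -1.70, and on the centred scale 21 were lower and 2 higher. The 9 regions of 2 AHR targets had a median of -1.19, with 3 lower (33.3%) and 1 higher (11.1%) on the centred scale. Over all regions the median was -1.04, with 32.4% lower and 33.6% higher on the centred scale. The 10 regions of 4 PPARalpha targets, the Cyp4a genes, had a median of -0.91. By lobular zone, 28 regions of 5 pericentral genes had a median of -1.99. On the deposited scale 26 of them were lower (92.9%), against 87.2% of all regions, and on the centred scale 20 were lower and 2 higher. The 1 periportal region, at Cyp2f2, changed by -1.94 and was lower on both scales. Of genes biased by sex in mouse liver, 36 regions of 8 female-biased genes had a median of -2.00, with 32 lower and 2 higher on the centred scale, and 8 regions of 2 male-biased genes one of -1.50, with 4 lower. The lists share genes, and differences between them were not tested.

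The genes that P450 enzymes depend on for electrons, heme and regulation were described from a list. The same list held 7 phase I enzymes other than P450 (Fmo1 to Fmo5, Ephx1 and Ephx2), with 51 regions. In all it held 44 genes, but those on chromosome 16, such as Nr1i2, were not analysed. Of the 44, 37 had 412 regions. On the deposited scale 364 of these were lower and 11 higher, with a median log2 change of -1.15, close to the -1.04 of all regions. On the centred scale 130 were lower (31.6%) and 99 higher (24.03%). At the strongest promoter region of each gene, 33 of 34 were lower on the deposited scale, and 13 were lower and 10 higher on the centred scale.

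Among the electron donors and partners, a list that includes Pgrmc1 and Pgrmc2, 7 of 8 promoters were lower on the deposited scale, with a median of -0.78. On the centred scale 1 of the 8, Cyb5a, was lower and 5 were higher, Pgrmc1 and Pgrmc2 among them. These values are near those of all regions within 1 kb of a start, of which 92.3% were lower with a median of -0.87, and 42.2% were higher on the centred scale. Por, the P450 oxidoreductase, held 432, 410 and 437 normalised reads at its promoter (chr5:135689207-135690131) in wild type, against 259, 255 and 227 in the knockout, a log2 change of -0.79 (SE 0.091, limma adjusted p = 2.5e-15), and 0.27 on the centred scale. Cyb5a, cytochrome b5, changed by -1.27 (SE 0.086), and -0.22 on the centred scale. Of the heme genes, Alas1, the rate-limiting enzyme of heme synthesis, went from 632 ± 53.3 to 293 ± 10.6 normalised reads (SD, n = 3), a log2 change of -1.10 (SE 0.084). Hmox1, which breaks heme down, held 146, 177 and 164 against 107, 121 and 97.7, a log2 change of -0.58 (SE 0.12), and 0.48 on the centred scale. Blvrb, which reduces biliverdin and was outside the naming rule, changed by -1.91 and was called lower on the centred scale, at -0.86. On that scale Por and Hmox1 were called higher and Alas1, at -0.05, was not called. Of the 76 P450 regions within 1 kb of a start, 50 were lower on the centred scale (65.8%) and 8 higher (10.5%), against 18.9% and 42.2% of all such regions.

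Among the regulators, Nr1i3, the gene of the receptor CAR, changed most. Its promoter (chr1:171213964-171216025) held 730, 767 and 711 normalised reads in wild type, against 152, 146 and 144 in the knockout, a log2 change of -2.31 (SE 0.090, limma adjusted p = 6.2e-66), and -1.26 on the centred scale. The promoter of Ahr changed by -1.10 (SE 0.069), that of Rxra, the common partner of CAR, PXR and PPARalpha, by -1.47 (SE 0.063), and that of Ppara by -1.58 (SE 0.081). Hnf4a, a main regulator of hepatocyte genes, went from 1255 ± 3.6 to 479 ± 19.4 normalised reads (SD, n = 3), a log2 change of -1.39 (SE 0.072). On the centred scale Rxra, Ppara and Hnf4a were at -0.41, -0.52 and -0.33, all called lower, and Ahr at -0.05 was not called. Nr1i2, the gene of PXR, lies on chromosome 16, which was not analysed, so its acetylation is not known here.

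**Figure D5:**
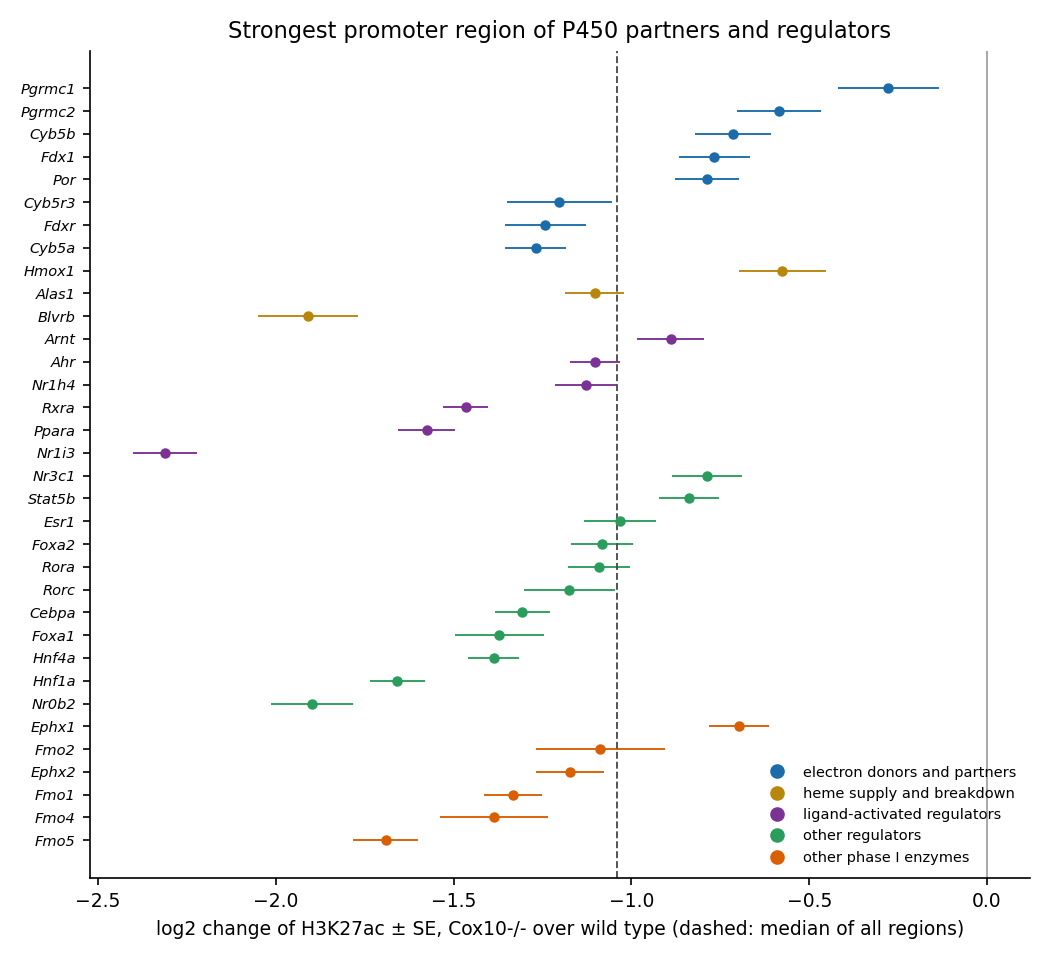
Log2 change (knockout over wild type, deposited scale) at the strongest promoter region of each P450 partner, regulator and other phase I enzyme gene by class. Bars are 1 SE and the dashed line is the median of all regions (-1.04). Nr1i3 is the lowest at -2.31, and 5 of the 8 electron donors and partners lie above the line.

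In whole tissue, fewer cells of a type and less acetylation per cell cannot be told apart. All 5 hepatocyte markers carried regions, 51 of 55 of them lower on the deposited scale, with a summed signal of 11415 to 11965 normalised reads in wild type, against 3482 to 3969 in the knockout. That share of lower regions, 92.7%, was near the 87.2% of all regions, with a median log2 change of -1.45. On the centred scale 30 of the 55 were lower (54.5%) and 5 higher (9.09%), against 32.4% and 33.6% of all regions. Hnf4a held 25 of the 55, with a median of -1.09 and 5 lower and 5 higher on the centred scale. The medians of Alb, Apoa1, Ttr and Serpina1c were -2.02, -1.73, -1.69 and -3.55, with no region higher on either scale. Of the macrophage and Kupffer markers 3 of 6 carried regions, 28 in all. On the deposited scale 17 were lower and 6 higher, and on the centred scale 4 were lower and 16 higher. Their sum went from between 3262 and 3442 to between 2129 and 2451. Cx3cr1 held 21 of the regions, 17 lower and 1 higher on the deposited scale. On that scale the 3 Cd14 regions were all higher, and of the 4 Cd68 regions 2 were higher and none lower. Adgre1, Clec4f and Csf1r had no region. The 4 regions of 1 of 5 endothelial markers went from between 268 and 298 to between 181 and 207, with 1 lower and 3 higher on the centred scale. The 2 regions of the biliary markers Epcam and Sox9, without Krt19 and Krt7, went from between 97.2 and 118 to between 82.6 and 97.7. Both were higher on the centred scale. The single T, B and NK cell marker with regions, Ptprc, had 2, both lower on either scale with a median log2 change of -2.03. The single erythroid marker with a region, Klf1, had 1, lower on the deposited scale (-0.77) and higher on the centred scale (0.28). No stellate marker had any region. The part of cell composition in the P450 changes was not tested.

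The regions held 3282878 to 4187377 recovered reads per library. The authors' size factors were 0.730 to 0.782 in wild type, against 1.18 to 1.32 in the knockout, so they differ between the genotypes as a whole, and the fall of the median region rests on them. Library medians were 6.66 to 6.69 on the log2 scale in wild type, against 5.51 to 5.70 in the knockout. Shares of signal do not depend on these factors, and changes on the centred scale depend on them only through the pseudocount.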

How the data were processed

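The authors deposited 1 table of normalised reads per H3K27ac region (a signal), with their log2 fold change, p-value and adjusted p for the knockout over wild type. Multiplying the values of a library by its own size factor gave whole reads, within 0.01, for 100% of them. The origin of the factors is not given in the sources at hand. Per the labels' protocols, foreign chromatin was spiked in ahead of the antibody step. The submitters' processing notes list BWA 0.7.5, MACS, deepTools 3.5.0 and the build mm10, and do not say what each was used for. The treatment of reads that map to several copies is likewise not given.

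Of 36446 regions, 59 repeats were dropped. Coordinates are as in the table, whose counting base is not stated, and chromosome 16 is not analysed here. The test was limma (version 3.58.1, R 4.3.3) with a variance trend, on the log2 of the value + 1, over all regions of 3 against 3 libraries, two-sided, with Benjamini-Hochberg adjustment and a threshold of 0.05. Fold changes are on that scale, which understates the change of weak regions. For the centred scale each library's median over all regions was subtracted. The fit was tested on simulated data. Alternatives were pseudocounts of 0.5 and 5, a mean signal of at least 20, a threshold of 0.01, edgeR 4.0.16 or DESeq2 1.42.0 run on whole reads, a replicate block, each library left out, and promoter regions only. Beside the centred scale, edgeR and DESeq2 used their own normalisation factors and not the median region.

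Regions named in the text were each subfamily's strongest, the 8 deepest falls and the 8 highest changes among called regions at or above the median signal, every called rise, and the strongest promoter of 14 P450 and 10 partner genes. Of these, Cyp2f2, Cyp2b10 and Cyp4a14 had no region within 1 kb and Cyp2c29 had none, while Nr1i2 lies on chromosome 16, which was not analysed. Members, lists and this rule were chosen with earlier results of these data known. Samples of the same replicate number did not deviate together (correlations of -9.0e-04, 0.0074 and 0.0054), so the numbers do not pair them. Motifs were searched on both strands, and percent identity of start sequences came from their edit distance.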

Additional observations from a re-analysis of the deposited data

How the results depend on the processing

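Of 43 named regions under 12 alternatives, 469 of 473 results without centring kept their direction and their side of the threshold; the exceptions were all Cyp2g1. Under centring, 12 changed sign: the uncalled Cyp1a2 region between genes (0.92), Cyp20a1 (0.59), the Cyp2b9 region between genes (0.42), Cyp2d22 (0.04), Cyp2d37-ps (0.21), Cyp2j6 (0.34), Cyp2r1 (0.24), Cyp4a10 (0.50), Cyp4f13 (0.19), the second Cyp4v3 promoter region (0.25), Hmox1 (0.48) and Por (0.27). Another 5 kept their sign and lost their call: Cyp2d9 (-0.21), the first Cyp4v3 promoter region (-0.14), Cyp7b1 (-0.02), Ahr (-0.05) and Alas1 (-0.05). Higher P450 regions on the deposited scale numbered 2, and 1 with a mean signal of at least 20, at a threshold of 0.01 or with DESeq2. They numbered 17 on the centred scale and 1 to 2 with a library left out, where lower ones numbered 191 to 194. Promoter regions alone had 74 lower and 0 higher on the deposited scale and 50 lower and 8 higher on the centred scale, since only 76 entered. On the centred scale 11 regions rather than 17 were higher at 0.01. DESeq2 gave 11 with its own size factors in place of the median region. With a library left out 120 to 130 were lower and 12 to 16 higher on the centred scale. Partner regions had 6 rather than 11 higher at 0.01 and 6 with DESeq2, 6 to 11 higher and 362 to 367 lower with a library left out (6 without knockout replicate 1), and 130 lower and 99 higher under centring. The cause of these changes was not tested. With the replicate block, the P450 regions had 193 lower and 2 higher (133 and 17 on the centred scale) and the partners 364 and 11, with no named call changed. The few reads in weak knockout regions limit the precision of their folds. The mean of regions was not set against the inputs.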

Other observations

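In the list of P450 partners, regulators and other phase I enzymes, 11 regions were higher in the knockout on the deposited scale. All lay more than 1 kb from a start site by the deposited annotation, and each of the 7 genes that carried them had a lower promoter. Both are near the background: of all 1622 higher regions, 202 lay within 1 kb of a start, and 92.3% of all regions there were lower. They are named here after their values were seen. Hnf4a, whose promoter fell, had a region over exon 9 of 10 (chr2:163568780-163569158) with 22.6, 27.4 and 30.7 normalised reads in wild type, against 68.0, 52.5 and 43.2 in the knockout. The groups did not overlap, with a log2 change of 0.98 (SE 0.21, limma adjusted p = 9.2e-06), against -1.39 at the promoter. Fmo5, a flavin monooxygenase of the liver, had a promoter at -1.69 and a region in intron 7 of 8 (chr3:97648174-97648528) with 27.9, 24.7 and 19.2 against 52.7, 50.04 and 56.1, a log2 change of 1.13 (SE 0.22). A region between genes named for Pgrmc2, a heme-binding protein of membranes, held 33.3, 28.8 and 29.4 against 84.1, 74.2 and 73.5, a log2 change of 1.31 (SE 0.19), with the promoter at -0.59. The other 8 lay at Rxra (3), Rora (2), Hnf4a, Ahr and Stat5b, with log2 changes of 0.28 to 0.76. Without knockout replicate 1 the number of higher partner regions was 6.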
